A study of Mus musculus with 18 samples.

Results

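Trp53 and 9 of its direct target genes (Cdkn1a, Mdm2, Ccng1, Sesn1, Bax, Zmat3, Phlda3, Trp53inp1 and Aen) were followed in cultured mouse embryonic fibroblasts (MEFs). The genes were taken by symbol from the table of raw counts, where the 10 rows stood among 55487. The series set out to find how fetal bovine serum (FBS) changes the sensitivity of cells to ferroptosis, an iron-dependent death by lipid peroxidation. Complete medium with the sensitising serum (S-FBS) is called Scm, and complete medium with the protective serum (R-FBS) is called Rcm. Wild-type MEFs, a purchased cell line, were kept in Scm, kept in Rcm, moved from Scm to Rcm (S-Rcm) for 12 h or 24 h, or moved from Rcm to Scm (R-Scm) for 12 h or 24 h. Each of the 6 groups had 3 RNA-seq libraries, the labels name no ferroptosis inducer, and no allele or transgene separated the groups. The 2 unexchanged groups are labelled 0 h, and a group given fresh medium with the same serum was not analysed here. Within an exchange, the change of serum, the change of medium and any difference in time in culture therefore cannot be told apart. Nothing in the labels ties a library to a separate culture, so that p-values measure the spread between these libraries, which may be technical.

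The protein p53, encoded by Trp53, is a transcription factor that is held at a low level by the ubiquitin ligase MDM2 and stabilised by DNA damage and other stresses. Its regulation is mostly at the level of the protein, so that its activity is usually read from its targets rather than from its own mRNA. In fibroblasts it is known for holding the cell cycle through p21 (Cdkn1a), and it also acts on apoptosis, on metabolism and, through the cystine carrier Slc7a11, on ferroptosis.

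p53 binds pairs of a 10-letter element, the p53 decamer, and the promoters were searched for single copies of it. RefSeq promoter windows (GRCm38.p6, 250 bases before to 50 bases after a transcript start) were at hand for 8 of the 10 genes. Windows of Zmat3 and Trp53inp1 were not used here. The decamer pattern reads the same on both strands, and a match had to fit it in every letter. A match stood in a window of 7 of the 8 genes (Phlda3 was the exception), against 9.55% of the 27025 genes with a window. With 1 letter allowed to differ outside the 4 core letters, the count stayed at 7 of 8, while the share of all genes rose to 42.8%. The stretches of Cdkn1a, Mdm2, Ccng1 and Bax are shown because these genes carry the results below, Bax as a target with a match that was called in no comparison of all libraries. They are written 5′ to 3′ on the strand of the gene, with the matches in capitals.
Cdkn1a (chr17:29090892-29090951, plus strand): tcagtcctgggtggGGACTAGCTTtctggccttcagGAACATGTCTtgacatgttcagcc
Mdm2 (chr10:117710910-117710969, minus strand): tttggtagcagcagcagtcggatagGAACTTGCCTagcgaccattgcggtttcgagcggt
Ccng1 (chr11:40755437-40755496, minus strand): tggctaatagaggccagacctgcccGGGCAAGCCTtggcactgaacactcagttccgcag
Bax (chr7:45467065-45467124, minus strand): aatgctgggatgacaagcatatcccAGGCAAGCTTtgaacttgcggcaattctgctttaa
Cdkn1a held 2 matches, the first beginning 73 bases before the start. In Mdm2, Ccng1 and Bax the single match began 186, 185 and 201 bases before it. All 4 stretches lie outside annotated exons. A match is a description of the letters, not evidence of binding, and the p53 elements of several targets, Mdm2 among them, are known to lie in introns, outside these windows.

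Total counts ran from 14534906 to 20313715 per library, and 15381 genes passed the filter on low counts, all 10 genes above among them, with 122 to 6049 counts each. All 9 fibroblast markers passed the filter, with summed levels of 9473 to 13543 CPM (counts per 1000000 of the scaled library total), while markers of epithelial cells and muscle stayed at or under 0.796 CPM in sum. Levels below are CPM on the linear scale, and fold changes are log2 values (log2FC) with their standard error (SE). A differentially expressed gene (DEG) had an absolute log2FC over 0.58 and an adjusted p under 0.05 in edgeR's quasi-likelihood test, with Benjamini-Hochberg adjustment over all genes tested. Counts at an unadjusted p under 0.05 are given below without the share of all genes at that cut, so no excess is read from them. Shares of all genes called are those of edgeR. Calls by a second tool, DESeq2, are given without such a share. Fewer cells with a transcript and less transcript per cell cannot be told apart in such bulk samples.

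Per length of exon, Bax was the most abundant of the 10 mRNAs, at a mean of 80.8 RPKM (CPM divided by exon length in kilobases) over the 18 libraries, ahead of Trp53 at 66.4 and Phlda3 at 59.7, and Trp53inp1 was the least abundant at 2.03. Trp53 itself (chromosome 11, 69580359 to 69591873, plus strand) was among the steadier genes, with a biological coefficient of variation (BCV) at percentile 6.53 of the genes tested. It had 268, 287 and 280 CPM in the Scm libraries and 259, 240 and 258 CPM in the Rcm libraries. In R-Scm it had 297, 246 and 267 CPM at 12 h and 257, 281 and 308 CPM at 24 h, and in S-Rcm 269, 275 and 254 CPM at 12 h and 246, 263 and 279 CPM at 24 h. Its highest library stood 1.28-fold above its lowest, and neighbouring groups in the order of its means overlapped throughout. Its log2FC was 0.10 ± 0.09 (SE) in R-Scm 12 h vs Rcm (adjusted p = 0.617, edgeR) and -0.14 ± 0.09 in Rcm vs Scm (adjusted p = 0.433).

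**Figure D1:**
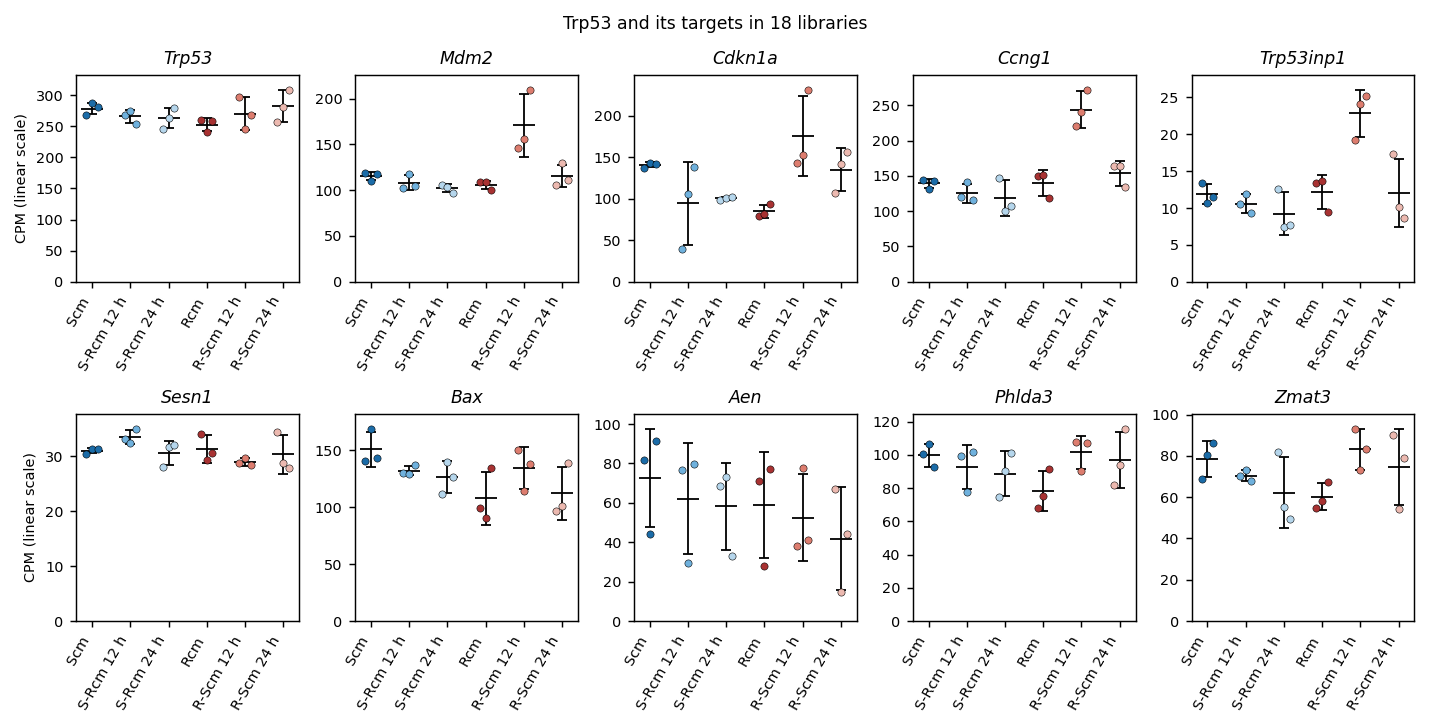
Level of each gene in CPM (linear axis from 0) in the 6 groups. Coloured points are libraries, the bar is the mean and the whiskers are ± 1 SD (n = 3). Mdm2, Ccng1 and Trp53inp1 lie above all other groups at R-Scm 12 h, and Aen spreads widely between the libraries of every group.

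After 12 h of R-Scm, 3 of the 10 genes were higher than in Rcm: Mdm2, Ccng1 and Trp53inp1, by 1.61- to 1.88-fold. Of all genes tested, 2.74% were DEGs in this comparison and 1.51% were DEGs in the upward direction. Cdkn1a had the largest fold change of the 10 and missed the adjusted threshold. No member was called lower. Mdm2 (chromosome 10, 117688875 to 117710758, minus strand) encodes the ligase that degrades p53, and it is itself a p53 target, closing a negative loop. Its level was 109, 108 and 101 CPM in Rcm and 146, 156 and 209 CPM in R-Scm 12 h. All 3 exchanged libraries were above all 3 Rcm libraries, replicate 3 by the widest margin. The log2FC was 0.69 ± 0.12 (SE; adjusted p = 0.00265). Ccng1 (chromosome 11, 40748552 to 40755311, minus strand) encodes cyclin G1, which recruits a phosphatase to MDM2. It had 149, 151 and 118 CPM in Rcm and 220, 240 and 272 CPM in R-Scm 12 h, again without overlap. Its log2FC was 0.81 ± 0.14 (adjusted p = 0.00338). Trp53inp1 (chromosome 4, 11156431 to 11174379, plus strand), a stress-induced nuclear protein that aids p53 and autophagy, was the least abundant of the 10 and had 13.3, 13.6 and 9.50 CPM in Rcm. Its libraries rose to 19.2, 24.2 and 25.1 CPM in R-Scm 12 h, none of which met the Rcm range. The log2FC was 0.91 ± 0.25 (adjusted p = 0.0453), the closest of the 3 calls to the threshold.

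Cdkn1a (chromosome 17, 29090976 to 29100727, plus strand) encodes p21, the inhibitor of cyclin-dependent kinases that stops the cell cycle. It had 79.6, 81.4 and 93.5 CPM in Rcm and 143, 153 and 231 CPM in R-Scm 12 h. All exchanged libraries were the higher ones, but replicate 3 stood well above the other two. Its log2FC was 1.05 ± 0.31 (adjusted p = 0.0700, edgeR), and DESeq2 called it (adjusted p = 0.00854). Over all alternatives run, left-out libraries included, its adjusted p lay between 0.00854 and 0.277. Zmat3, an RNA-binding regulator of splicing and mRNA stability, went from 54.9 to 67.5 CPM in Rcm to 73.2 to 92.8 CPM in R-Scm 12 h, with a log2FC of 0.46 ± 0.18 (adjusted p = 0.180). With Zmat3, 5 of the 10 genes had libraries all higher than those of Rcm, where 11.7% of all genes tested did. The remaining 5 overlapped. Bax, the pore-forming protein of apoptosis, had a log2FC of 0.31 (adjusted p = 0.325) and Phlda3, an inhibitor of AKT at the membrane, one of 0.38 (adjusted p = 0.181). Sesn1, a stress sensor that restrains mTORC1, was at -0.11 (adjusted p = 0.614), and Aen, a nuclease of apoptotic cells, at -0.16 ± 0.56 (adjusted p = 0.920). The median over the 10 genes was 0.42, and that over all genes tested was -0.01.

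The calls of R-Scm 12 h vs Rcm did not rest on the same libraries. Ccng1 was a DEG with each of the 6 libraries left out in turn, with log2FCs of 0.71 to 0.88. Without replicate 3 of R-Scm 12 h, Mdm2 fell to 0.52, under the fold cutoff, with an adjusted p of 0.0086, and Ccng1 was then the only member called. Trp53inp1 kept its call only without replicate 1 of R-Scm 12 h (adjusted p = 0.0475) and lost it with any of the other 5 left out (adjusted p from 0.0844 to 0.157). With the 2 groups fitted alone, Cdkn1a and Ccng1 were called, while Mdm2 (adjusted p = 0.0572) and Trp53inp1 (0.0509) were not. The 3 libraries of R-Scm 12 h also held 3.55 to 5.21 CPM of the 4 macrophage markers in sum, against 2.33 to 3.39 CPM in Rcm. Cd68 was the only one of the 4 to pass the filter, and the defining markers Ptprc, Csf1r and Adgre1 had 0 to 3, 0 to 6 and 0 counts. The 3 endothelial markers summed to 0.492 to 3.12 CPM in R-Scm 12 h and 0.406 to 0.872 CPM in Rcm, ranges that overlapped. The fibroblast markers summed to 9473 to 10517 CPM in R-Scm 12 h against 12108 to 12607 CPM in Rcm. The part of these differences in the result was not tested.

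**Figure D2:**
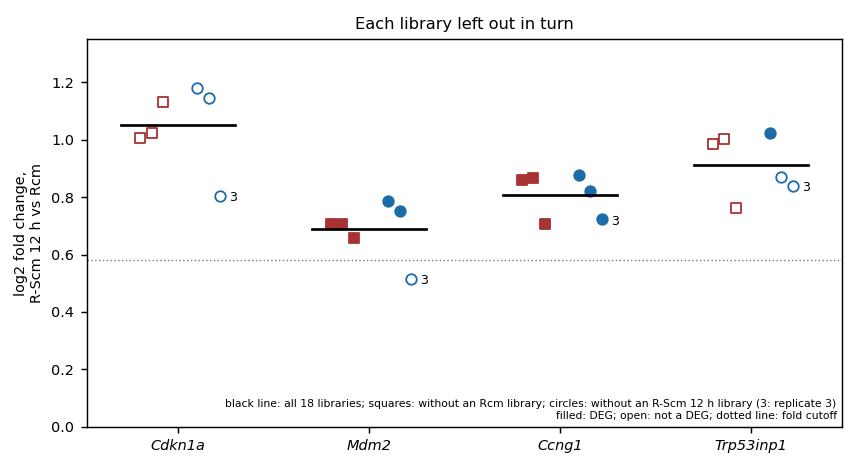
Log2FC of 4 genes in R-Scm 12 h vs Rcm with all 18 libraries (black line) and with each library of the 2 groups left out (squares, Rcm; circles, R-Scm 12 h). Filled symbols are DEGs; Ccng1 stays filled throughout, and the lowest circle of each gene is the fit without replicate 3 of R-Scm 12 h.

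At 24 h of R-Scm none of the 10 genes was a DEG against Rcm, in edgeR or in DESeq2, where edgeR called 0.377% of all genes tested. At an unadjusted p under 0.05 edgeR gave 1, Cdkn1a. Cdkn1a still had 107, 142 and 156 CPM, all above the Rcm libraries, with a log2FC of 0.67 ± 0.31 (adjusted p = 0.462). It was the 1 gene of the 10 whose libraries were all higher, where 5.57% of all genes were. Mdm2 stood at 106, 129 and 112 CPM and Ccng1 at 164, 164 and 134 CPM, with log2FCs of 0.13 and 0.14 against Rcm. Between the time points, Ccng1 fell by 0.67 on the log2 scale (SE 0.14, adjusted p = 0.0287), and it was the only member among the 0.774% of genes that were DEGs from 12 h to 24 h. The log2FC of Mdm2 was -0.56 ± 0.12 (adjusted p = 0.0251), short of the fold cutoff, and Mdm2 was called without replicate 1 (-0.66) or 2 (-0.62) of R-Scm 12 h or replicate 2 of R-Scm 24 h (-0.65). Trp53inp1 had 17.3, 10.1 and 8.67 CPM at 24 h, a log2FC of -0.93 ± 0.25 (adjusted p = 0.0833). It was called by DESeq2 (adjusted p = 0.0176) and without replicate 1 of R-Scm 24 h (adjusted p = 0.00683). All 3 genes had 24 h libraries entirely below those at 12 h, where 8.43% of all genes did. The change of Cdkn1a was -0.38 ± 0.30 (adjusted p = 0.621). The call of Ccng1 was lost without replicate 2 or 3 of R-Scm 12 h or replicate 2 or 3 of R-Scm 24 h (adjusted p from 0.0551 to 0.143) and in the fit of the 2 groups alone (0.280).

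R-Scm 12 h was also compared with Scm, the medium the cells had been moved into, a comparison chosen after seeing the data that shares its exchanged libraries with the one above. Ccng1 was 1.75-fold and Trp53inp1 1.92-fold higher than in Scm, so that both exceeded either steady medium. Of all genes tested, 4.4% were DEGs here, 19.1% had R-Scm 12 h libraries all higher and 17.7% all lower. Among the 10 genes, Mdm2, Ccng1 and Trp53inp1 were all higher and Sesn1 all lower. Scm had 144, 131 and 143 CPM of Ccng1 and 13.4, 10.7 and 11.5 CPM of Trp53inp1, all under the R-Scm 12 h libraries. The log2FCs were 0.81 ± 0.14 (adjusted p = 0.00245) and 0.94 ± 0.25 (adjusted p = 0.0288). Mdm2 was at 0.56 ± 0.12 (adjusted p = 0.00755), just under the fold cutoff that it passed without replicate 1 of Scm (0.58) or replicate 1 (0.66) or 2 (0.62) of R-Scm 12 h, from 119, 110 and 118 CPM in Scm. Cdkn1a, by contrast, had 138, 144 and 143 CPM in Scm, overlapping the lowest R-Scm 12 h library, and its log2FC was 0.32 ± 0.30 (adjusted p = 0.548). Ccng1 was called with any library left out, whereas the call of Trp53inp1 was lost without any of the Scm libraries and without replicate 2 or 3 of R-Scm 12 h (adjusted p from 0.0626 to 0.112).

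In steady culture, none of the 10 genes was a DEG between Rcm and Scm, in edgeR or in DESeq2, where edgeR called 2.3% of all genes tested. At an unadjusted p under 0.05 edgeR gave 3, namely Cdkn1a, Bax and Phlda3, all lower in Rcm. The share of all genes at that unadjusted cut is not given here. Cdkn1a was 0.601-fold in Rcm relative to Scm, with a log2FC of -0.73 ± 0.31 (adjusted p = 0.256). With the 2 groups fitted alone its adjusted p was 0.00297, and over the other alternatives it lay between 0.137 and 0.538. Bax had 141, 169 and 143 CPM in Scm and 99.3, 90.3 and 134 CPM in Rcm, a log2FC of -0.48 ± 0.16 (adjusted p = 0.132). Without replicate 3 of Rcm, its highest, Bax was called at -0.68 (adjusted p = 0.0251). Phlda3 had 100.3, 106 and 92.6 CPM in Scm and 68.0, 75.5 and 91.2 CPM in Rcm, a log2FC of -0.35 ± 0.15 (adjusted p = 0.262). Zmat3 was at -0.38 ± 0.18 (adjusted p = 0.317) and Mdm2 at -0.13 ± 0.12 (adjusted p = 0.607). With Trp53, 6 of the 10 genes had Rcm libraries all below the Scm libraries, where 11.2% of all genes tested did. None of the 6 passed the adjusted threshold, and the Rcm libraries are also the reference of the R-Scm comparisons above. Across genes, the log2FC in this comparison rose weakly with exon length (Spearman rho 0.129, 15366 genes), and Bax and Phlda3 have the shortest exon models of the 10. The part of length in these values was not tested.

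**Figure D3:**
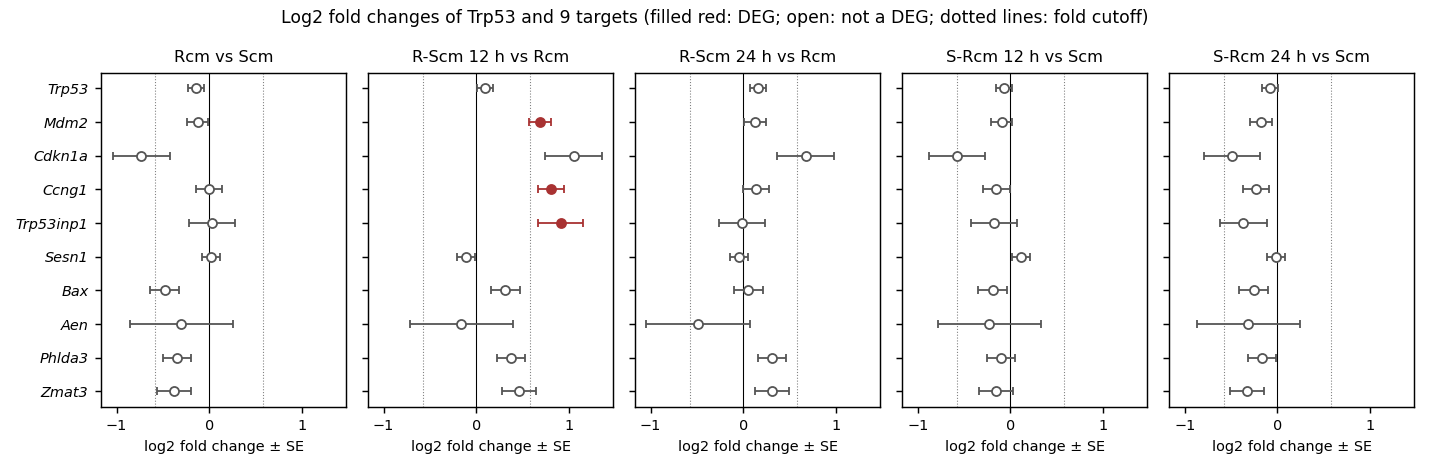
Log2FC (horizontal axis) with its SE for the 10 genes in 5 comparisons. Filled red points are DEGs and dotted lines the fold cutoff of 0.58; the 3 red points are all in R-Scm 12 h vs Rcm.

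The opposite exchange gave no DEG among the 10 genes. In S-Rcm 12 h vs Scm, 0.858% of all genes tested were DEGs, and no member had an unadjusted p under 0.05 in edgeR or was called by DESeq2. Bax was the only member with all libraries below Scm, where 12% of all genes were. Cdkn1a was the most variable, with 40.1, 106 and 138 CPM and a log2FC of -0.58 ± 0.31 (adjusted p = 0.416). One library was far below the rest of the group and another within the Scm range. Mdm2 (103, 117 and 104 CPM) was at -0.10 ± 0.12, Ccng1 (120, 141 and 115 CPM) at -0.15 ± 0.14 and Trp53inp1 (10.5, 11.9 and 9.31 CPM) at -0.17 ± 0.25. The adjusted p of these 3 lay between 0.699 and 0.828. Sesn1 was the only member with all libraries higher than Scm (32.4 to 34.9 CPM against 30.4 to 31.3), where 14.4% of all genes were. Its log2FC was 0.11 ± 0.10 (adjusted p = 0.664). In S-Rcm 24 h vs Scm, 0.338% of genes were DEGs and again no member was, at an unadjusted p under 0.05 or with DESeq2. All 10 fold changes were negative, with a median of -0.25 against 0.01 over all genes tested. Cdkn1a (98.4, 101 and 102 CPM), Mdm2 (106, 104 and 97.1 CPM) and Bax (112, 140 and 126 CPM) were below all Scm libraries, where 8.87% of all genes were. Their log2FCs were -0.49 ± 0.31, -0.18 ± 0.12 and -0.26 ± 0.16, with adjusted p of 0.747 to 0.784. From S-Rcm 12 h to S-Rcm 24 h, 0.156% of genes were DEGs and no member was, at an unadjusted p under 0.05 or with DESeq2. Sesn1 was the only one with all 24 h libraries lower (8.48% of all genes).

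Whether the 2 exchanges differed was tested directly, as the R-Scm change minus the S-Rcm change. At 12 h the difference was called for Mdm2 (0.78 ± 0.16, log2) and Ccng1 (0.96 ± 0.20), each with an adjusted p of 0.0174, where 2.03% of all genes tested were called. Mdm2 was higher in R-Scm 12 h and its S-Rcm 12 h libraries overlapped Scm, and the same held for Ccng1. The difference was 1.63 ± 0.43 for Cdkn1a (adjusted p = 0.0704) and 1.09 ± 0.35 for Trp53inp1 (adjusted p = 0.136), neither of which passed. Cdkn1a was called by DESeq2 and without replicate 1 (adjusted p = 0.0204) or 3 (0.0229) of S-Rcm 12 h, and Trp53inp1 with the 4 groups fitted alone (0.0249). The adjusted p of Mdm2 rose to 0.0510 without replicate 1 of Scm and to 0.0536 without replicate 1 of S-Rcm 12 h. That of Ccng1 rose to 0.0508 and 0.0509 without replicate 1 or 3 of S-Rcm 12 h. At 24 h no member was called, in edgeR or in DESeq2, where edgeR called 1.37% of genes. At an unadjusted p under 0.05 there were 3, Cdkn1a (1.16 ± 0.43, adjusted p = 0.253), Zmat3 and Phlda3, and with the 4 groups fitted alone Cdkn1a was called (adjusted p = 0.00773). Mdm2 and Ccng1 were at 0.30 ± 0.16 and 0.37 ± 0.20.

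**Figure D4:**
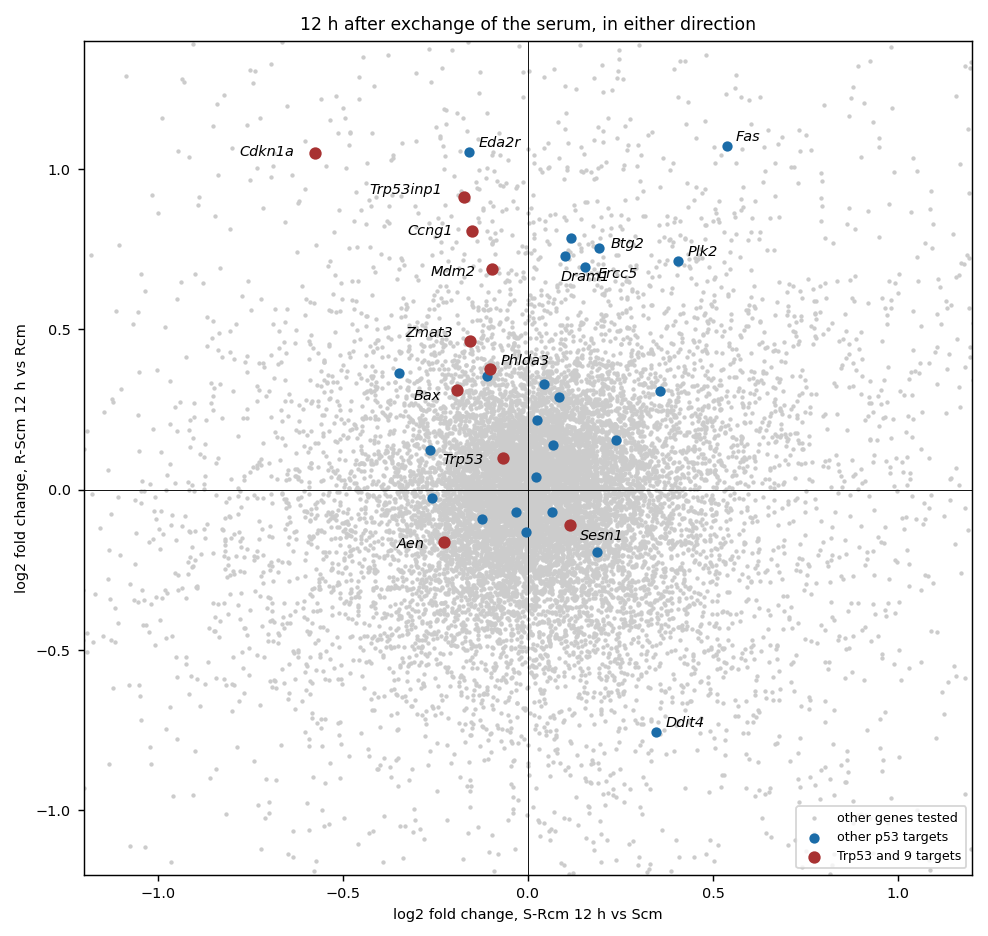
Log2FC 12 h after Scm to Rcm (horizontal) against 12 h after Rcm to Scm (vertical), for all genes tested within the axes (grey), 24 other p53 targets (blue) and the 10 genes (red). The 2 comparisons share no library; Cdkn1a, Trp53inp1, Ccng1 and Mdm2 lie high and left of the vertical zero line, Fas and Plk2 to its right.

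A list of 26 other known p53 targets was read in the same way, and 24 of them passed the filter. This list and those below were chosen with earlier results of these data known, so they are no independent check of the 10 genes. In R-Scm 12 h vs Rcm, 6 were higher and 1 was lower, where 2.74% of all genes tested were DEGs and 1.51% were higher. The death receptors Fas and Eda2r rose the most. Fas had 9.29, 11.7 and 7.11 CPM in Rcm and 16.9, 19.0 and 23.0 CPM in R-Scm 12 h, a log2FC of 1.07 ± 0.19 (adjusted p = 0.00323). Eda2r had 16.7, 17.4 and 12.6 CPM in Rcm and 25.7, 31.8 and 39.2 CPM in R-Scm 12 h, a log2FC of 1.05 ± 0.19 (adjusted p = 0.00409). Neither gene's groups overlapped, and both calls held with any library left out and with the 2 groups fitted alone. Of the 24 genes, 9 had libraries all higher than Rcm, where 11.7% of all genes tested did, and 1 had them all lower. The other higher DEGs were the antiproliferative Btg2 (0.76, adjusted p = 0.0140), the kinase Plk2 (0.71, adjusted p = 0.00455), the autophagy gene Dram1 (0.73, adjusted p = 0.0460) and the repair nuclease Ercc5 (0.69, adjusted p = 0.00607). None of these 4 was called without replicate 3 of R-Scm 12 h, where their log2FCs were 0.51, 0.52, 0.46 and 0.56. Ddit4, an inhibitor of mTORC1 that is also induced by other stresses, fell by 0.76 (adjusted p = 0.0218), from 18.3, 21.8 and 27.7 CPM to 14.6, 12.7 and 12.9 CPM. Btg2 was also lost without replicate 1 or 2 of Rcm (adjusted p = 0.0629 in both), and Dram1, whose libraries overlapped, was kept only without replicate 1 of R-Scm 12 h (adjusted p from 0.0643 to 0.242 in the others). The call of Ddit4 was lost without replicate 2 or 3 of Rcm or of R-Scm 12 h (adjusted p from 0.0532 to 0.110). With the 2 groups fitted alone, only Fas and Eda2r were called. The median of the list was 0.25. Perp and Gdf15 did not pass the filter, with 0 to 2 and 0 to 9 counts. A match to the p53 decamer stood in the windows of 0 of these 7 DEGs and 4 of the 20 listed genes with a window, against 9.55% of all genes. With 1 letter allowed to differ, the counts were 2 of 7 and 10 of 20, against 42.8%.

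Against Scm, R-Scm 12 h had 5 of the 24 genes higher and 1 lower, where 4.4% of all genes tested were DEGs. Fas (1.25 ± 0.19, adjusted p = 0.00081) and Plk2 (0.97 ± 0.13, adjusted p = 0.000366) were the highest, ahead of Btg2 (0.88), Eda2r (0.70) and Ercc5 (0.67), and Ddit4 fell by 0.70. The adjusted p of these last 4 lay between 0.00424 and 0.0328, and DESeq2 called the same 6 genes. Eda2r kept its call in 1 and Ddit4 in 2 of the 6 fits with a library left out (adjusted p up to 0.172 and 0.0975), Ercc5 fell under the fold cutoff without replicate 3 of R-Scm 12 h (0.54), and the other 3 were called in all 6. In this comparison 10 of the 24 genes had libraries all higher and 4 all lower, where 19.1% and 17.7% of all genes tested did. The median of the 24 genes was 0.23. Fold changes of all genes rose weakly with exon length (Spearman rho 0.11), whose part was not tested. The endothelial markers summed to 0.139 to 0.641 CPM in Scm, overlapping R-Scm 12 h (0.492 to 3.12 CPM). Of the 2 that passed the filter, Cdh5 (0 to 18 counts) and Kdr (0 to 30), 1 was a DEG, higher in R-Scm 12 h. DESeq2 called neither. The macrophage markers summed to 2.36 to 3.30 CPM in Scm, under all R-Scm 12 h libraries (3.55 to 5.21 CPM). The part of these markers was not tested either.

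In 4 comparisons the 24 genes gave no DEG in edgeR, with 3 at an unadjusted p under 0.05 in Rcm vs Scm, 2 in R-Scm 24 h vs Rcm, 4 in S-Rcm 12 h vs Scm and 4 in S-Rcm 24 h vs Scm. In these 4, DESeq2 called 1, Bbc3, lower in Rcm than in Scm, a gene named here after its value was seen. In S-Rcm 12 h vs Scm, 7 of the 24 genes had libraries all higher, where 14.4% of all genes tested did. In 1 gene they were all lower, where 12% of all genes were. Fas and Plk2 were among the 7, at 0.54 ± 0.19 and 0.41 ± 0.13, with adjusted p of 0.194 and 0.15 in edgeR. From 12 h to 24 h of R-Scm, Eda2r fell by 0.89 (adjusted p = 0.0287) and Ercc5 by 0.69 (adjusted p = 0.0183). DESeq2 called both and also Fas, which was at -0.71 in edgeR (adjusted p = 0.0820). Eda2r lost this call without replicate 2 or 3 of R-Scm 12 h or replicate 3 of R-Scm 24 h (adjusted p from 0.0692 to 0.141), Ercc5 without replicate 3 of R-Scm 12 h or replicate 2 or 3 of R-Scm 24 h (0.0632 to 0.111), and both in the fit of these groups alone.

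Genes around p53 and downstream of p21 were read in the 5 comparisons with the medium left or between Rcm and Scm. Of 12 regulators and relatives of p53, 10 passed the filter and none was a DEG in these 5, in edgeR or DESeq2. At most 1 had an unadjusted p under 0.05 in any of them. Mdm4, the partner of MDM2, averaged 90.1 CPM in Rcm and 91.3 CPM in R-Scm 12 h (log2FC 0.02, adjusted p = 0.957). Cdkn2a, whose locus encodes ARF, which blocks MDM2, was expressed at 221 to 424 CPM in all libraries, with a log2FC of -0.34 ± 0.17 (adjusted p = 0.307). Of 8 effectors linked to ferroptosis, 6 passed the filter and none was a DEG in edgeR in the 5 comparisons, with 0 to 4 at an unadjusted p under 0.05. Slc7a11, which imports cystine and is repressed by p53, had 17.5 to 53.8 CPM in Rcm and 12.8 to 22.7 CPM in R-Scm 12 h. The ranges overlapped, with a log2FC of -1.16 ± 0.40 (adjusted p = 0.126), and it was called by DESeq2 (adjusted p = 0.0279) and without replicate 3 of Rcm (0.0268). Over all alternatives its adjusted p lay between 0.0268 and 0.331. Against Scm its log2FC was -1.28 ± 0.40 (adjusted p = 0.0668), and it was called by DESeq2 (0.00741) and with the 2 groups fitted alone (0.0336). From 12 h to 24 h of R-Scm its libraries did not overlap. The share of all genes with 24 h libraries all higher is not given here, so no excess is read from that. Its mean went from 18.2 to 49.4 CPM. That log2FC was 1.44 ± 0.40 (adjusted p = 0.117 in edgeR), and DESeq2 called it (0.00526). Over the alternatives its adjusted p lay between 0.00526 and 0.274. Of 12 cell cycle genes that fall when p21 is active, all passed the filter and none was a DEG in those comparisons in either tool, with at most 2 at an unadjusted p under 0.05. Their log2FC in R-Scm 12 h vs Rcm ran from -0.44 to 0.03, with 11 negative. The median was -0.16, against -0.01 over all genes tested. In S-Rcm 12 h vs Scm 9 were positive and 3 negative, with a median of 0.16 against 0.02. There 6 had libraries all higher than Scm, where 14.4% of all genes did, and 0 had them all lower. In the difference between the exchanges at 12 h all 12 were negative, with a median of -0.31 against -0.03, and none was a DEG.

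The 10 genes did not move as a single block across the 18 libraries. The correlations that follow are descriptions on log2 CPM, between libraries that share groups, and the within-group values are taken after removing each group's mean. Ccng1 and Trp53inp1 were the closest pair, with Pearson's r of 0.94 over 18 libraries and 0.84 within groups, and Mdm2 and Ccng1 followed with 0.91 and 0.57. Bax and Phlda3 formed another pair, with 0.73 and 0.77, and Trp53 went with Bax at 0.58 and 0.72. Within groups the pairs opposed each other, with r of -0.80 between Phlda3 and Trp53inp1 and -0.75 between Ccng1 and Bax. Cdkn1a was close to none of these within groups, its highest value being 0.42 with Mdm2.

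Libraries of a group also differed in how their levels went with transcript length. For each library, deviations of all genes from the group mean were correlated with exon length, which gave Spearman's rho from -0.295 to 0.267. The deviations of Ccng1 and Trp53inp1 rose with this value of the library (r of 0.80 for both), and those of Phlda3 and Bax fell with it (-0.82 and -0.63). Exon models of Phlda3 and Bax span 1559 and 1576 bases, and those of Ccng1 and Trp53inp1 3512 and 6475 bases. Of the other genes, Zmat3, at 11435 bases, had an r of 0.22, Aen, at 5801 bases, 0.18, and Mdm2, at 5083 bases, 0.47. Trp53, at 4045 bases, had -0.50, Sesn1, at 3982 bases, 0.09, and Cdkn1a, at 3553 bases, 0.10. The part of length in the correlations between these genes was not tested. Across genes, fold changes in R-Scm 12 h vs Rcm had a rho of 0.01 with length, against 0.11 in R-Scm 12 h vs Scm, -0.14 in R-Scm 24 h vs Rcm and -0.12 in R-Scm 24 h vs R-Scm 12 h.

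**Figure D5:**
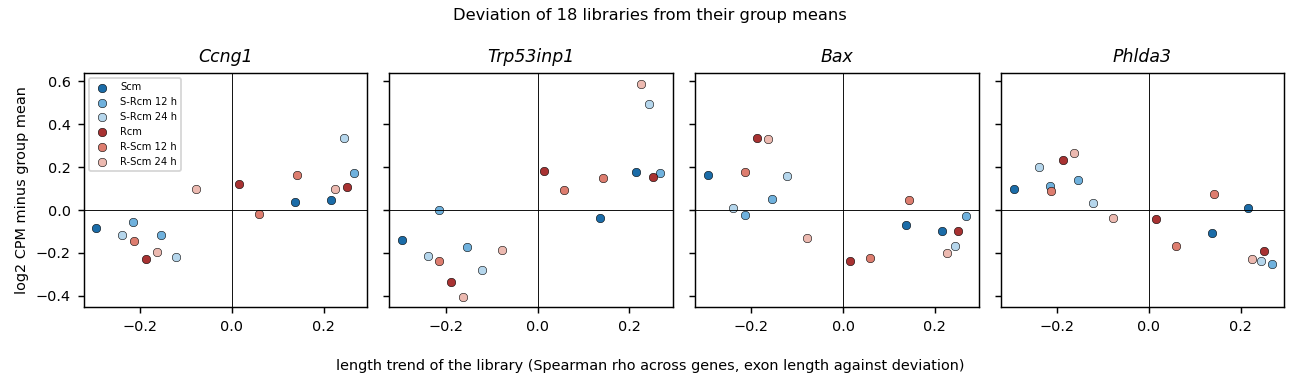
Deviation of each library from its group mean in log2 CPM (vertical) against the length trend of the library, Spearman's rho across genes (horizontal), for 4 genes. Points are the 18 libraries coloured by group; Ccng1 and Trp53inp1 rise from left to right, while Bax and Phlda3 fall.

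Aen was the least stable of the 10 genes. Its BCV was 0.465, higher than in 97.0% of genes tested, against 0.089 for Trp53 and 0.260 for Cdkn1a. In 8 libraries, at least 1 in every group, it had 14.5 to 44.4 CPM, and the other 10 had 67.0 to 91.5 CPM, with none in between. This cut was made after the values were seen. The step across it was 1.51-fold, less than the 1.92-fold step from the lowest library to the next. Within Rcm the values were 71.0, 27.8 and 77.4 CPM, and within R-Scm 12 h 38.2, 77.8 and 41.4 CPM. Its groups overlapped in every comparison, and the SE of each of its log2FC in comparisons of 2 groups was 0.56.

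By the highest Pearson correlation of log2 CPM over the 18 libraries, the genes most like Cdkn1a were Tpst2 (0.88), Gm17435 (0.86) and Cnst (0.82). Those most like Mdm2 were Tmem200a (0.94), Mindy3 (0.94) and Vcam1 (0.93), and those most like Trp53 were Fam214b (0.84), Gfer (0.81) and Tmem171 (0.80). Each set holds the top 3 of 15380 genes compared. For the genes like Mdm2, Spearman's rho was lower, 0.64 to 0.75. Reads of Cdkn1a and of an overlapping gene on the opposite strand (AC167363.2, 273 shared exon bases, 4 to 24 counts) cannot be told apart if strand was not used in counting, which the sources used here do not state. The pseudogene Trp53-ps had 36 to 90 counts, and a share of reads exchanged with Trp53 is uncertain.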

How the data were processed

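RNA was taken from MEFs with an RNeasy kit, and paired-end mRNA libraries were sequenced. The authors mapped reads by HISAT2 (build GRCm38, per the submitters' processing notes). They deposited 1 table of raw counts per gene, used here unchanged. All 18 columns were matched to samples by the labels. Members and lists were chosen with earlier results of these data known. edgeR 4.0.16 in R 4.3.3 (filterByExpr, TMM factors, robust quasi-likelihood) was fitted to the 18 libraries by group and tested on simulated data, and 40106 genes were removed by the filter. The cutoffs, 0.58 and 0.05, follow the study, which used DESeq2. DESeq2 1.42.0 was an alternative, beside RLE scaling, other filters and thresholds, a replicate block, fits of the compared groups alone and each library left out. log2 CPM used a prior count of 2. Named genes were the 10 members, DEGs of the p53 lists in the 5 main comparisons, Cdkn2a, Mdm4, Slc7a11 and the 3 genes most like Cdkn1a, Mdm2 and Trp53. Exon lengths and positions came from the reference annotation of GRCm38. The common BCV was 0.173. No pair of replicates agreed within sampling noise (chi-square per gene 9.72 to 43.1).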

Additional observations from a re-analysis of the deposited data

Results flagged for a closer look

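The difference between the exchanges at 12 h (R-Scm change minus S-Rcm change, edgeR, log2) was tested in the 10 genes and in 24 other targets, 10 regulators, 6 effectors linked to ferroptosis and 12 cell cycle genes. It passed in 7 of them, where 2.03% of all genes tested passed. The difference was 0.78 for Mdm2 and 0.96 for Ccng1, each with an adjusted p of 0.0174. It was 1.21 for Eda2r (adjusted p = 0.0239), from 1.05 in R-Scm 12 h and -0.16 in S-Rcm 12 h, and was lost without any of 6 of the 12 libraries (adjusted p up to 0.0673). It was -1.10 for Ddit4 (adjusted p = 0.0264), from -0.76 and 0.35, and was lost without any of 9 of the 12 (adjusted p up to 0.0786).

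The other 3 are named after their values were seen. Sat1, an enzyme of polyamine catabolism and a p53 target, differed by 0.91 (adjusted p = 0.0158), and its call held with each of the 12 libraries left out. Chek2, a checkpoint kinase that acts on p53, differed by -0.97 (adjusted p = 0.0493), and the phospholipase gene Pla2g6 by -0.66 (adjusted p = 0.0362). The call of Chek2 was kept in 1 and that of Pla2g6 in 2 of the 12 fits with a library left out. None of these 3 was a DEG in either exchange alone. Sat1 was just under the fold cutoff in R-Scm 12 h vs Rcm (0.567, adjusted p = 0.0212, edgeR) and was called there in 3 of 6 fits with a library left out. In S-Rcm 12 h vs Scm it was at -0.34 (adjusted p = 0.234).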

How the results depend on the processing

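Of 73 single-gene values, 406 of 438 fits with another setting kept the direction and the side of the threshold, 17 lost a call, 14 gained a call and 1 changed sign (Aen in R-Scm 12 h vs Rcm, 0.029 with the replicate block). With a library left out, 407 of 510 did, 85 lost a call, 15 gained a call and 3 changed sign: Aen ran from -0.56 to 0.089 and Mdm4 from -0.059 to 0.096 in R-Scm 12 h vs Rcm. Over all members and comparisons 10 of 600 and 59 of 720 fits changed sign, and none of them was called. The causes of these changes were not tested.

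The replicate numbers shared by the groups did not pair the samples in the data. Same-numbered libraries of 2 groups correlated between -0.196 and 0.346 in their deviations, 7 of 18 libraries were closest to one with their own number, and the deposited columns number some replicates differently. The replicate block added Cdkn1a in R-Scm 12 h vs Rcm (4 members called; adjusted p = 0.0388) and in the difference at 12 h (3 members), and changed no other call of a member.

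At an adjusted p under 0.01 the DEGs numbered 170 in Rcm vs Scm, 227, 20 and 322 in R-Scm 12 h vs Rcm, R-Scm 24 h vs Rcm and R-Scm 12 h vs Scm, 45 and 7 in S-Rcm 12 h and 24 h vs Scm, 42 and 8 from 12 h to 24 h of R-Scm and S-Rcm, and 122 and 81 for the differences at 12 h and 24 h. Members then numbered 0 from 12 h to 24 h of R-Scm, 0 for the difference at 12 h and 1 in R-Scm 12 h vs Scm. Without a fold cutoff R-Scm 12 h gave 644 DEGs against Rcm and 1148 against Scm, and 2 members fell from 12 h to 24 h. In fits of the compared groups alone, R-Scm 12 h vs Rcm gave 237 DEGs, R-Scm 24 h vs Rcm 4, S-Rcm 12 h vs Scm 260, S-Rcm 24 h vs Scm 90 and R-Scm 24 h vs R-Scm 12 h 2. There 1 member was called in Rcm vs Scm, 1 in the difference at 24 h and 0 from 12 h to 24 h of R-Scm. DESeq2 gave 165 in R-Scm 24 h vs Rcm, 268 and 135 in S-Rcm 12 h and 24 h vs Scm, 234 and 93 from 12 h to 24 h of R-Scm and S-Rcm, and 489 and 401 for the differences, with 2 members from 12 h to 24 h of R-Scm.

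Leaving out a library gave 178 to 574 DEGs in Rcm vs Scm (0 to 1 members), 275 to 420 in R-Scm 12 h vs Rcm (1 to 3), 353 to 770 in R-Scm 12 h vs Scm (1 to 3), 14 to 501 in R-Scm 24 h vs Rcm, 36 to 76 in S-Rcm 12 h vs Scm, 6 to 28 in S-Rcm 24 h vs Scm, 57 to 309 from 12 h to 24 h of R-Scm (0 to 2), 8 to 16 in S-Rcm, 176 to 289 for the difference at 12 h (1 to 2) and 120 to 761 for that at 24 h.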
